A study of Mus musculus with 60 samples.

Results

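Voltage-gated potassium (Kv) channel genes were examined in RNA-seq of mouse prefrontal cortex, as the rows whose gene symbol marks a Kv pore (alpha) subunit of the Kcna, Kcnb, Kcnc, Kcnd, Kcng, Kcnq, Kcns or Kcnv families or a Kcnab (beta) subunit. Of 37 symbols of that form, 33 were among the 18088 genes of the deposited table and 4 were not analysed here (Kcna7, Kcna10, Kcnv2 and Kcnab3os). All 33 reached 10 normalised reads in at least 5 libraries, the minimum for a gene to be tested, and 31 of them did so in all 60 libraries. They comprise 28 alpha subunits, 3 beta subunits and 2 antisense RNAs whose symbols share the same stem, Kcnq1ot1 and Kcnd3os. The mice were C57BL/6J, taken at postnatal day 25 after 3 weeks (day 3 to day 24) in which vehicle, fluoxetine (a serotonin reuptake inhibitor) or lithium (a mood stabiliser) reached the pups through the mother's milk. They were wild type (WT) or carried 1 K228E allele of Tbr1 (heterozygous, HT), a transcription factor of the T-box class found in deep cortical layers. With both sexes, this made 12 groups of 5 libraries. No litter, dam or batch is named in the labels, so each p-value measures only the spread between these libraries, and pups of 1 litter would have shared their treatment.

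Kv channels open when a neuron depolarises and let potassium leave the cell, which ends the action potential and sets how soon the next can follow. A channel is built from alpha subunits that line the pore, and most families differ in threshold, speed and place on the neuron: Kcna (Shaker) subunits act mainly on axons, Kcnb (Shab) on the soma and proximal dendrites, Kcnc (Shaw) in fast-spiking cells, Kcnd (Shal) on dendrites, and Kcnq subunits carry the slow M current that restrains repetitive firing. Kcng, Kcns and Kcnv subunits are called silent, since they form no working channel alone and modify Kcnb channels by joining them. Kcnab subunits bind Kcna channels inside the cell and alter their inactivation and surface delivery.

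Values are called normalised reads, since each is a read number over the size factor of its library. Libraries held between 23930164 and 36515331 reads. Fold changes are differences of log2(value + 1) with their standard error, tested with limma over 17781 genes in all 60 libraries, and a gene was called changed at a Benjamini-Hochberg adjusted p below 0.05. The 8 cortical excitatory neuron markers were read in every library, including Slc17a7, the glutamate transporter of cortical synaptic vesicles, at 19078 or more. Tbr1 itself lay between 845 and 5241, a level that does not test a point mutation. Markers of the olfactory bulb, which lies in front of this tissue, moved with treatment. The sum of the 7 bulb markers was 5455 to 23729 in WT vehicle libraries and 219 to 2381 under fluoxetine, 1268 to 15813 in WT lithium libraries, 364 to 23854 in HT vehicle libraries, 161 to 3884 under fluoxetine in HT and 96.6 to 15454 under lithium in HT, and no marker was at 0 in any library (Tbx21 and Eomes had the lowest value, 1.098). The 10 vehicle male libraries also stood apart from the other 50, with no overlap between them in 7.28% of all genes tested. In vehicle males this separation and the drug contrasts cannot be told apart, so values in females are also given for the main comparisons. In bulk tissue, fewer cells of a type and less RNA per cell cannot be told apart.

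Kv genes differed widely in level. Per kilobase of exon, the only scale on which genes are compared here, Kcnab2 stood first with 2382 normalised reads per kilobase as the mean over 60 libraries, 17.7% of the summed level of the 31 protein-coding genes. Kcnab2 encodes the beta subunit that carries Kcna channels to axons. Kcnv1, a silent subunit, and Kcnc4, a fast-inactivating Shaw subunit, were close at 699.98 and 696 per kilobase, and their ranges over the libraries overlapped. At the lower end stood Kcnq1, the cardiac and inner-ear member of its family, with 13.1 per kilobase, and Kcng3, a silent subunit, with 18.8.

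By family, the beta subunits held 24.8% of the summed level per kilobase and the Kcnq genes 19.3%. The Kcnc genes held 16.3% and the 6 Kcna genes 14.0%, and Kcnd held 7.0%, Kcnv1 5.19%, Kcng 4.05% and Kcns 2.41%. Among the leading genes per kilobase within families were Kcna2, Kcnab2, Kcnc4, Kcnd2, Kcng1, Kcns2 and Kcnv1. Ranges over the 60 libraries differed between genes, as the plot of level per kilobase shows. Among silent subunits Kcng3 ran from 5.78 to 113 normalised reads and Kcns1 from 60.7 to 467, but Kcng2 only from 96.8 to 204. Kcnab1, a beta subunit, ran from 354 to 2213, and Kcnc1, a subunit of fast-spiking interneurons, from 4512 to 6767.

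**Figure D1:**
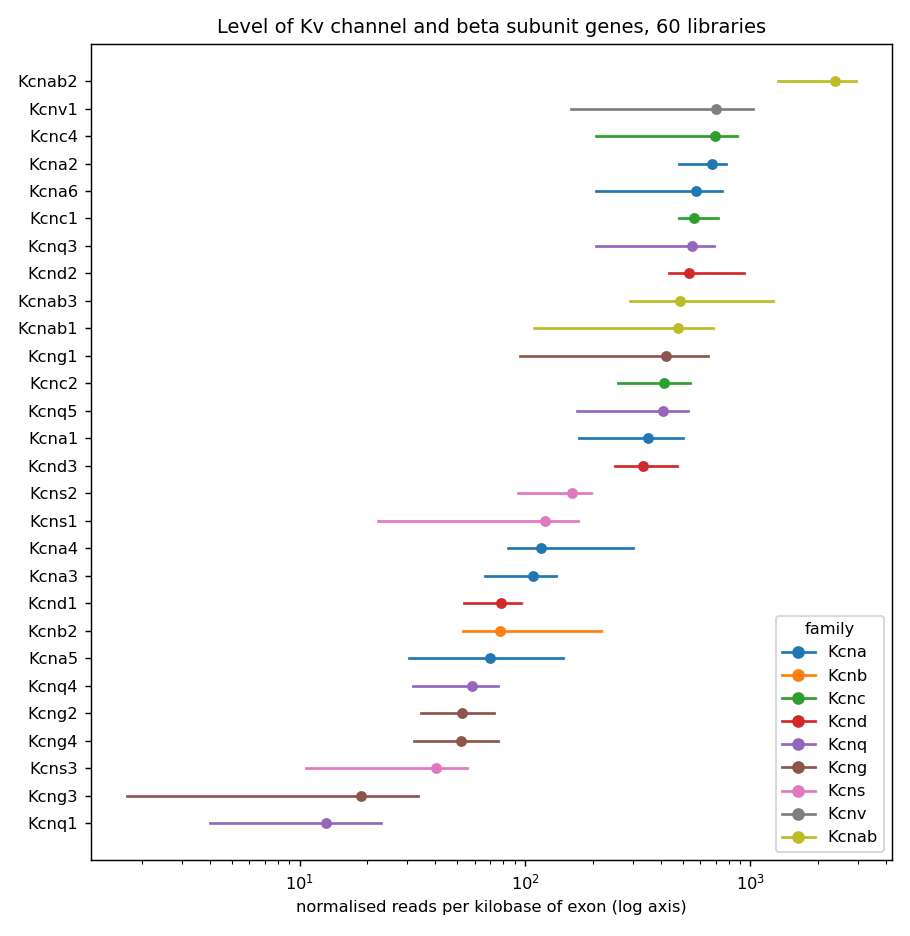
Level of protein-coding Kv genes in normalised reads per kilobase of exon on a log axis; the point is the mean over 60 libraries, the line runs from the lowest to the highest library, and colour gives the family. Kcnab2 (2382) stands highest, and Kcng3 and Kcns1 have long lines.

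Under vehicle, the question was whether the K228E allele changed Kv genes. None of the 33 was called between HT and WT with limma, where 0.0337% of all genes were (0.00562% higher, 0.0281% lower), and edgeR and DESeq2 on recovered reads also called 0, beside 0.0506% and 4.53% of all genes. At an unadjusted p under 0.05 there were 23, beside 33.2% of all genes, and the lowest adjusted p was 0.0788. The median difference of the 31 protein-coding genes was 0.15, beside 8.14e-05 for all genes tested, with 23 of 31 values above 0. Kcng3 had 26.5, 59.6 and 83.3 normalised reads in HT vehicle libraries (lowest, median, highest of 10) and 5.78, 44.4 and 61.2 in WT, a log2 difference of 0.67 ± 0.22 with an adjusted p of 0.0788. Kcnab3, a beta subunit, was at 901, 1132 and 2770 in HT and 1197, 1547 and 3189 in WT, at -0.44 ± 0.15 with the same adjusted p. For both genes the ranges of the genotypes overlapped.

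That count rested on single libraries. It became 24 without HT vehicle female replicate 1 (beside 35.3% of all genes in that fit), 16 without WT vehicle male replicate 1 (20.7%), 13 without WT vehicle female replicate 4 (17.6%) and 11 without HT vehicle male replicate 2 (17%). Without both libraries of the highest bulb mean (WT vehicle male replicate 4 and HT vehicle female replicate 1) it was 19, beside 21% of all genes. The 7 bulb markers had a median of -1.47 in the same comparison, with none called. With bulb covariates (the bulb markers averaged once as log2 values and once as linear values, added to the fit), the 0 stayed and Kcng3 was not called. Between genotypes under fluoxetine and under lithium, limma called 0 of 33 as well, beside 0.0112% and 0.00562% of all genes; 0 and 1 passed an unadjusted p under 0.05, beside 2.95% and 8.37%. Averaged over the 3 treatments, a comparison added after the data had been seen, 0 of 33 were called beside 1.21% of all genes.

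Most Kv genes differed between the fluoxetine and vehicle libraries of WT mice. Of the 33, 30 were called (21 higher, 9 lower), beside 63.2% of all genes tested (31.7% higher, 31.5% lower). The median over the 31 protein-coding genes was 0.38, beside -0.0058 for all genes. The summed bulb markers of these 2 groups did not overlap, and with bulb covariates 7 of the 33 were called, beside 24.3% of all genes. The 3 not called were Kcna3 (0.07 ± 0.09), Kcng4 (0.08 ± 0.10) and Kcnd3os (0.02 ± 0.18). The 10 fluoxetine and 10 vehicle libraries did not overlap for 8 of the 33, which were Kcna6, Kcnab2, Kcnc4 and Kcns3 above vehicle and Kcna4, Kcnab3, Kcnb2 and Kcnd3 below it, where 9.79% of all genes showed such a gap.

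Silent subunits gave the 2 largest rises. Kcns1, a modifier of Kcnb channels known from sensory neurons, stood at 60.7, 227 and 356 normalised reads under vehicle (lowest, median, highest of 10 WT libraries) and at 346, 421 and 464 under fluoxetine. Only the highest vehicle library reached into the fluoxetine range, and the rise was 0.997 ± 0.18 (adjusted p = 8.7e-06). Kcng3 stood at 5.78, 44.4 and 61.2 under vehicle and at 53.2, 74.9 and 84.5 under fluoxetine, a rise of 1.01 ± 0.22 (adjusted p = 9.9e-05). The lowest vehicle value of both genes came from WT vehicle male replicate 4, and without any 1 library the rise of Kcng3 was 0.73 to 1.12 and that of Kcns1 0.80 to 1.08. Kcns3 rose by 0.78 ± 0.18, Kcng1 by 0.77 ± 0.18, Kcnv1 by 0.65 ± 0.18, Kcns2 by 0.38 ± 0.09 and Kcng2 by 0.38 ± 0.06. Of the 8 silent subunits, 7 were called higher and none lower, beside 31.7% and 31.5% of all genes. With bulb covariates only Kcng2 (0.29 ± 0.08) of the 8 was called, and Kcns3, Kcng1, Kcns2 and Kcnv1 were at -0.07, -0.04, -0.02 and -0.19. In WT females Kcng2 was at 0.14 ± 0.09, not called. Together they made up 12.9% ± 2.79 of the alpha subunit level per kilobase in WT vehicle libraries and 16.2% ± 0.928 under fluoxetine (SD, n = 10 each).

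The beta subunits split. Kcnab1, which gives Kcna channels fast inactivation, stood at 354, 1183 and 1672 normalised reads under vehicle and at 1563, 1835 and 2034 under fluoxetine, a rise of 0.84 ± 0.19 (adjusted p = 0.00019). Kcnab2 went from 5461, 7442 and 10099 to 10788, 11652 and 12138, a rise of 0.60 ± 0.08 with an adjusted p of 8.1e-09, the smallest among the 33, and its fluoxetine libraries all lay above those of vehicle. Kcnab3 went the other way, from 1197, 1547 and 3189 under vehicle to 770, 922 and 1112 under fluoxetine, a fall of 0.83 on the log2 scale (SE 0.15, adjusted p = 3.4e-06). Its share of the 3 beta subunit genes per kilobase was 23.9% ± 9.31 in WT vehicle libraries and 9.89% ± 1.22 under fluoxetine (SD, n = 10 each). The share ran from 14.7% to 46.8% in WT vehicle libraries (median 23.05%) and from 7.86% to 11.6% under fluoxetine (median 9.82%). With bulb covariates, given below, Kcnab2 was still called higher. Kcnab1 and Kcnab3 were not called in that fit, and the value of Kcnab1 changed sign.

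**Figure D2:**
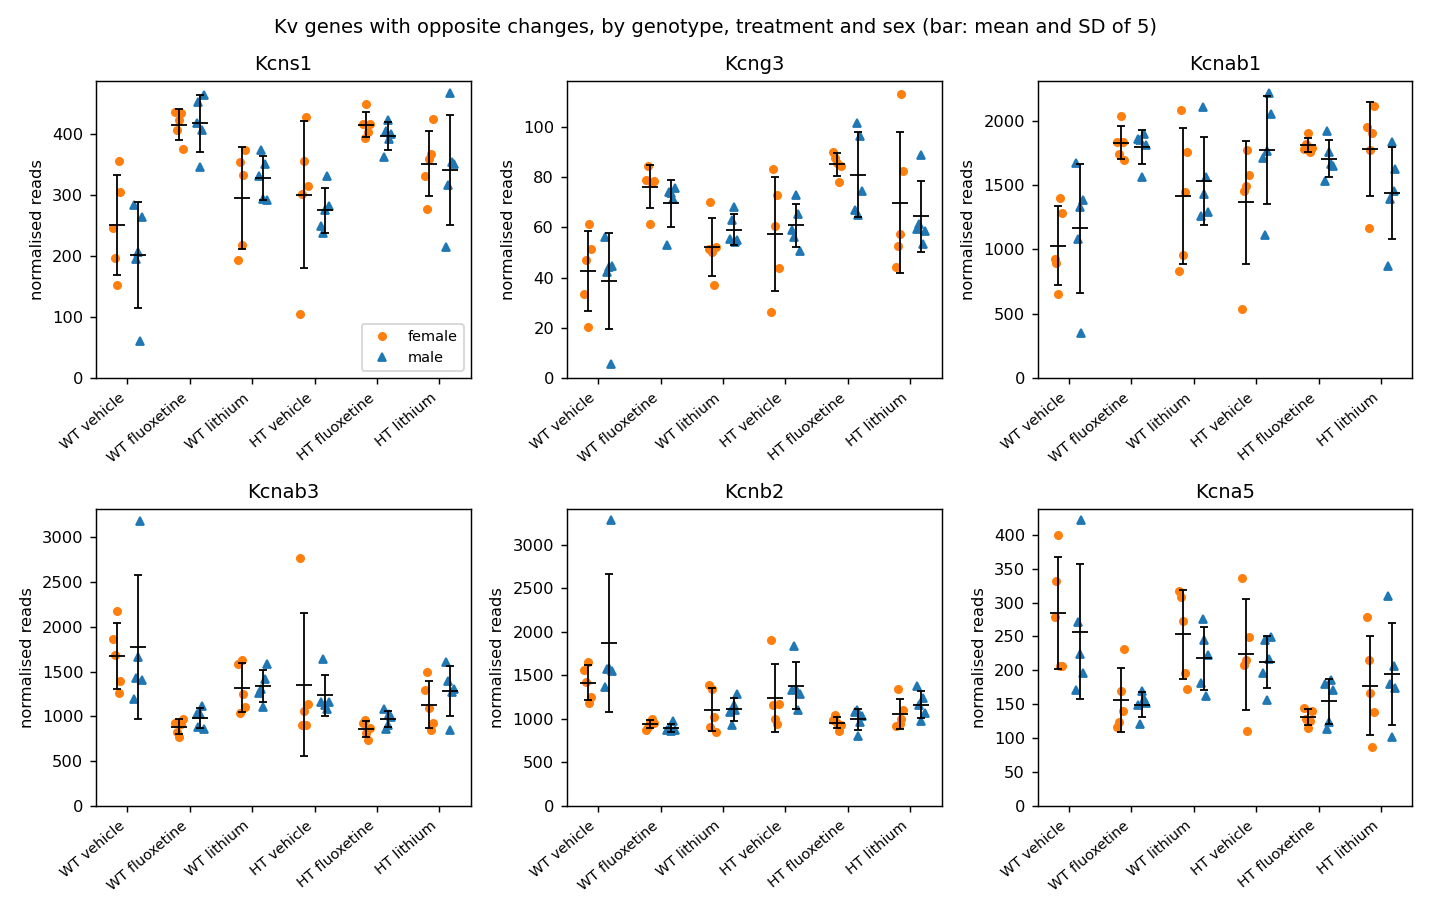
Normalised reads of 6 Kv genes in each of 60 libraries, by genotype and treatment, with females as circles, males as triangles, and the mean and SD of each 5. Under fluoxetine the WT libraries of Kcns1, Kcng3 and Kcnab1 lie high and close together, and those of Kcnab3, Kcnb2 and Kcna5 lie low.

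Shaker genes also changed in both directions, including neighbours. On chromosome 6, Kcna5, Kcna1 and Kcna6 lie in a row on the minus strand, with gaps of 105 and 61.95 kb. Kcna6 stood at 1205, 2601 and 3428 normalised reads under vehicle and at 3476, 3848 and 4140 under fluoxetine, with no overlap and a rise of 0.69 ± 0.15 (adjusted p = 6.2e-05). Kcna1, the low-threshold axonal channel mutated in episodic ataxia, rose by 0.60 ± 0.15. Kcna5, known as the ultrarapid delayed rectifier of the atrium, stood at 171, 248 and 422 under vehicle and at 116, 150 and 232 under fluoxetine, a fall of 0.79 on the log2 scale (SE 0.18, adjusted p = 0.00026), although their ranges overlapped. Kcna4, the fast-inactivating Shaker subunit, fell by 0.57 and Kcna2, the most abundant of the family, rose by 0.22 ± 0.07. With bulb covariates, given below, Kcna5, Kcna1, Kcna6 and Kcna4 were not called, the value of Kcna5 changed sign and Kcna2 was called lower.

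Of the 33, 19 had a start site in the RefSeq promoter table (build GRCm38.p6), with 28 windows of 250 bases before the start. Without bulb covariates, Kcns1 had one of the largest rises under fluoxetine in WT. Kcna6 and Kcna5, of the chromosome 6 row, moved in opposite directions in that fit. The windows of these genes are shown for that reason. Each runs 5′ to 3′ on the gene's minus strand, and capitals mark a GC box (GGGCGG or its reverse complement) in Kcns1 and a T-box core (GGTGTGA, the letters that T-box factors recognise) in Kcna6.
Kcns1, chr2:164171114-164171363: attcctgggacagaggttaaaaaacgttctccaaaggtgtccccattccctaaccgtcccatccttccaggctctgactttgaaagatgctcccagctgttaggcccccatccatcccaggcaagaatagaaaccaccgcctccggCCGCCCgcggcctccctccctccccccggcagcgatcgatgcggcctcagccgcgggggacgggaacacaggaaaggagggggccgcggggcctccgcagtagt
Kcna6, chr6:126740675-126740924: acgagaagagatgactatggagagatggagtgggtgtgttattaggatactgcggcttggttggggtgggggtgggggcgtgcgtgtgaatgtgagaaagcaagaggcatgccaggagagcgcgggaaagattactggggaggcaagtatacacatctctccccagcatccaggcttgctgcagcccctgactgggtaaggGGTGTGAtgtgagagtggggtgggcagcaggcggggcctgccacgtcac
Kcna5, chr6:126535556-126535805: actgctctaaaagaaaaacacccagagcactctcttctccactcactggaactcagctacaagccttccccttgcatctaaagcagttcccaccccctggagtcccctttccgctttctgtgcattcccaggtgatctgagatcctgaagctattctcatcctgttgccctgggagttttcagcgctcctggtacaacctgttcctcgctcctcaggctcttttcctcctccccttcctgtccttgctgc

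On both strands, the T-box core GGTGTGA was found in 3 of the 28 windows (of Kcna6, Kcnc1 and Kcnd3os), beside 3.33% of all 32851 promoter windows of the same length. In Kcna6 it lay 49 bases before the start. The GC box GGGCGG, the usual site of Sp factors, was in 12 of the 28 windows (of 11 genes), beside 32.7% of all windows. The cyclic AMP response element TGACGTCA and the TATA box TATAAA were in none of the 28, beside 1.55% and 12.4% of all windows. Each motif was counted separately, so matches of different motifs may share bases, and a match is a description of the window only. The Kcna5 window held none of the 4 motifs.

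Genes of the other pore families changed as well. Kcnb2, a delayed rectifier, stood at 1184, 1556 and 3291 normalised reads under vehicle and at 860, 899 and 995 under fluoxetine, a fall of 0.78 on the log2 scale (SE 0.11, adjusted p = 8.9e-08) with no overlap. Of the Shal genes that carry the dendritic A current, Kcnd2 and Kcnd3 fell, by 0.31 and 0.42 on the log2 scale, and Kcnd1 rose by 0.31 ± 0.06. Of the Shaw genes, Kcnc4 rose by 0.73 ± 0.13 and Kcnc2 by 0.34 ± 0.09, while Kcnc1 fell by 0.11. Of the Kcnq genes, Kcnq1 rose by 0.69 ± 0.20 and Kcnq3, a subunit of the M channel, by 0.53 ± 0.14.

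**Figure D3:**
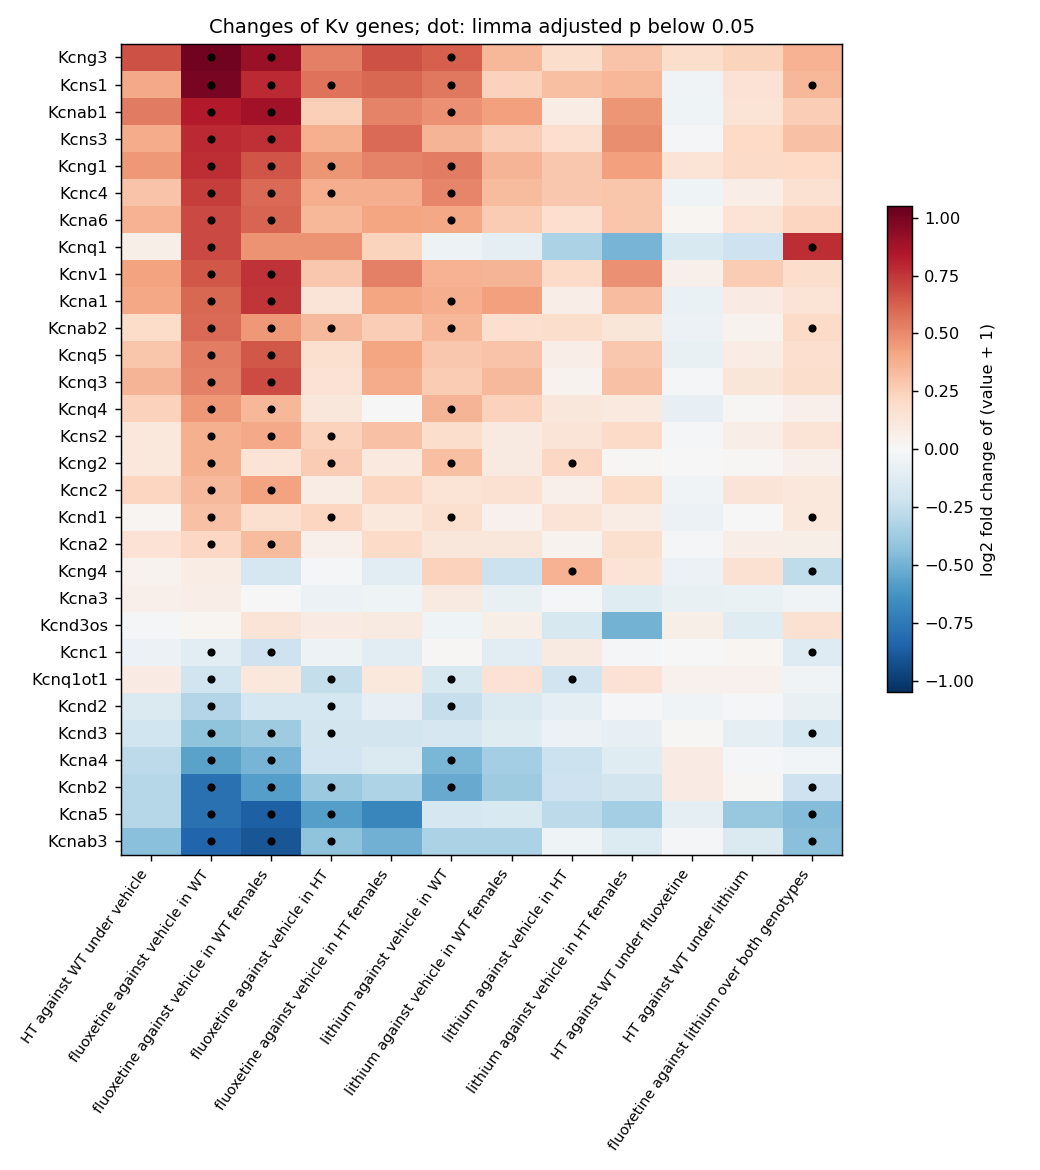
Log2 fold change of Kv genes (rows, ordered by the change under fluoxetine in WT) in 12 comparisons (columns); red is higher, blue is lower, and a dot marks a limma adjusted p below 0.05. The column for fluoxetine in WT holds a dot in every row but 3, those for lithium in females and for HT against WT hold none.

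In WT females, away from the vehicle males, 24 of the 33 were called (18 higher, 6 lower), beside 39.8% of all genes, and the median of the 31 was 0.35. Kcns1 stood at 152, 197, 247, 304 and 356 normalised reads in the 5 vehicle females and at 376, 407, 423, 435 and 436 under fluoxetine, a rise of 0.79 ± 0.26 (adjusted p = 0.0155 with limma). Kcng3 stood at 20.4, 33.5, 46.8, 51.3 and 61.2 in vehicle females and at 61.4, 77.7, 78.5, 78.6 and 84.5 under fluoxetine, a rise of 0.91 ± 0.31. In neither gene did the 2 groups overlap, and 29.2% of all genes showed such a gap in this comparison. Kcnab3 stood at 1259, 1391, 1688, 1862 and 2174 in vehicle females and at 770, 825, 921, 924 and 976 under fluoxetine, a fall of 0.90 on the log2 scale (SE 0.21, adjusted p = 0.0014 with limma). Kcna5 fell by 0.86, Kcnb2 by 0.58 and Kcna4 by 0.49, and Kcnab1 and Kcns3 rose by 0.88 ± 0.27 and 0.77 ± 0.26. Kcna1 (0.75 ± 0.22), Kcna6 (0.61 ± 0.21), Kcnc2 (0.42 ± 0.13), Kcnc4 (0.60 ± 0.19) and Kcnq3 (0.68 ± 0.20) were also called higher in females, and Kcnd3 (-0.37 ± 0.11) and Kcnc1 (-0.22 ± 0.06) lower. Kcnd1 (0.17 ± 0.08) and Kcnd2 (-0.18 ± 0.08) were not called there. Leaving out WT vehicle female replicate 3 reduced the count from 24 to 11 (5 higher, 6 lower), beside 24.2% of all genes. Without it Kcng3 (0.67), Kcns1 (0.62), Kcnab1 (0.73), Kcns3 (0.66) and Kcnc4 (0.46) missed the threshold, and Kcns3 also did without WT vehicle female replicate 2.

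Marker lists were also read. Of all genes, 63.2% were called for fluoxetine in WT (31.7% higher, 31.5% lower), and the counts below are to be read beside that share. Under fluoxetine in WT, all 7 bulb markers fell (median -4.43), and of the 8 cortical excitatory neuron markers 6 rose and 1 fell (median 0.66). The summed level of the excitatory markers was 26106 to 64639 in WT vehicle libraries and 65732 to 76495 under fluoxetine. Slc17a7, with a median of 51271 over all libraries, makes up most of that sum. As a mean of log2 values the excitatory list overlapped, from 9.68 to 11.367 in WT vehicle and 11.176 to 11.386 in WT fluoxetine libraries. In WT females the bulb list had a median of -5.15. Of the other lists in WT, 4 of 7 choroid plexus markers fell (median -0.84), 4 of 5 endothelial markers fell (median -0.17), 4 of 6 microglial markers rose (median 0.30), and of 6 astrocyte markers 2 rose and 4 fell (median -0.26). Of 6 parvalbumin interneuron markers 3 rose and 2 fell, of 12 striatal markers 4 rose and 2 fell, and of 6 oligodendrocyte markers 2 rose. The part of these lists in the changes of Kv genes was not tested. Across the 60 libraries, with each value taken as its deviation from the group mean, 62 relations were computed between the 31 genes and both marker lists (permutation tests within groups, 100000 resamples, adjusted over the 62). With the bulb list, 6 genes were related positively and 19 negatively by both Pearson's r and Spearman's rho. With the excitatory list, 19 were positive and 6 negative. The same relations were not computed over all genes, so these counts are not shown to be particular to Kv genes.

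Kcnd3 had an r of 0.82 and a rho of 0.78 with the bulb list, and 0.76 for r without the 2 libraries farthest from the median. Kcnc4 had an r of 0.96 and a rho of 0.84 with the excitatory list (0.92 without the 2 farthest), and Kcnb2 an r of -0.88 and a rho of -0.73 (-0.78 without them). Each of these had a permutation p of 1e-05, the smallest that the resamples can give, and an adjusted p of 1.68e-05 for r. Kcnq1 was related to neither list, with an r of 0.22 (p = 0.17) and a rho of 0.145 (p = 0.316) for the bulb and 0.25 (p = 0.171) and 0.11 (p = 0.456) for the excitatory markers, adjusted p 0.18 for both r. The libraries share dissection and depth, and the part of tissue make-up in the drug contrasts was not tested other than by the covariate fit.

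With the bulb covariates in the fit, 7 of 33 were called for fluoxetine in WT (3 higher, 4 lower), beside 24.3% of all genes, and 5 of the 7 had been called in the same direction without them. The higher were Kcnq1 at 0.86 ± 0.25, Kcng2 at 0.29 ± 0.08 and Kcnab2 at 0.20 ± 0.04. The lower were Kcnb2 at -0.23 ± 0.07, Kcnq1ot1 at -0.31 ± 0.07, Kcnq5 at -0.15 ± 0.05 and Kcna2 at -0.13 ± 0.05, of which Kcnq5 and Kcna2 had been higher without the covariates. Kcns1 was then at 0.06, Kcng3 at 0.27, Kcnab1 at -0.12, Kcnab3 at -0.06 and Kcna5 at 0.12, none of them called. In WT females, 0 of 33 were called with the covariates, beside 0.0225% of all genes, and Kcns1 was at -0.28, Kcnab1 at -0.22 and Kcnab3 at -0.02. Since the bulb sums of WT vehicle and WT fluoxetine libraries do not overlap, this fit rests on the slope within groups.

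**Figure D4:**
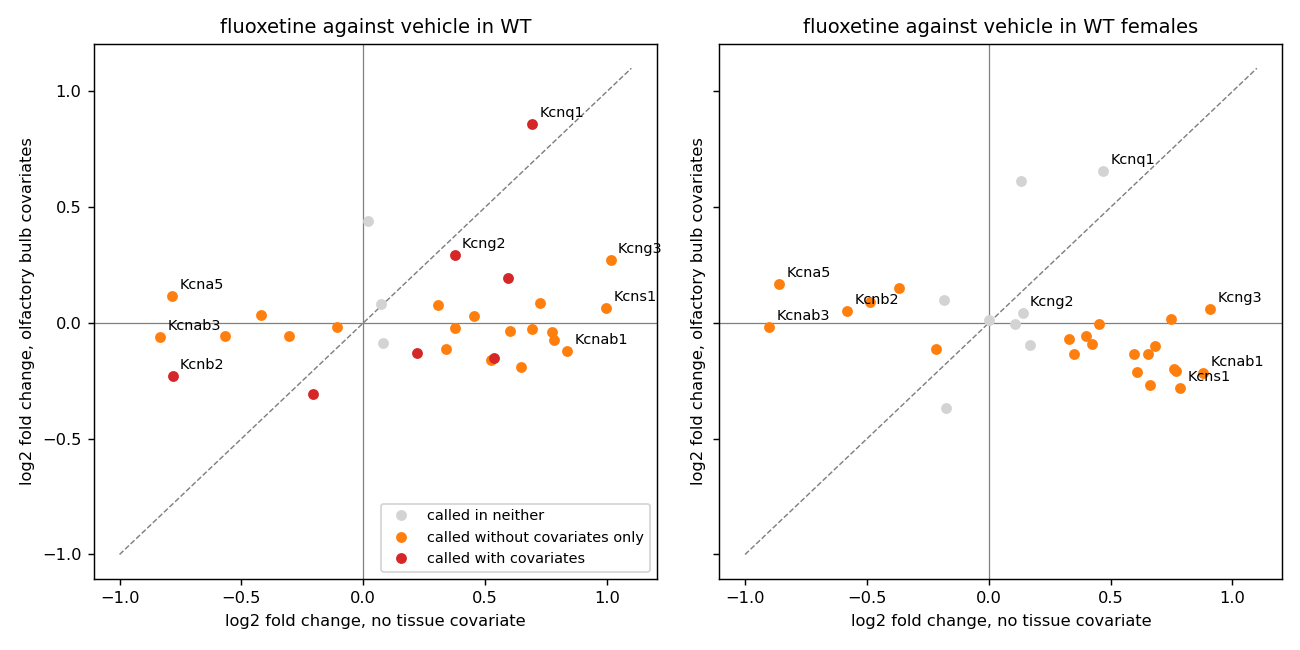
Log2 fold change of Kv genes without (x axis) and with (y axis) the olfactory bulb covariates, for fluoxetine in WT (left) and in WT females (right); the dashed line marks equal values. Most points lie near 0 on the y axis, while Kcnq1 (0.86) and Kcng2 (0.29) on the left stay near the dashed line.

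In HT mice, fluoxetine was followed by 14 calls of 33 (8 higher, 6 lower), beside 40.8% of all genes (20.2% higher, 20.6% lower), with a median of 0.15 over the 31 genes. The HT and WT comparisons use different vehicle libraries. Kcns1 stood at 105, 292 and 427 normalised reads in HT vehicle libraries and at 362, 404 and 449 under fluoxetine, and rose by 0.57 ± 0.18 (adjusted p = 0.012 with limma over 10 libraries each). Kcng1, a silent partner of Kcnb channels, rose by 0.46 ± 0.18, Kcnc4 by 0.38 ± 0.13 and Kcnab2 by 0.34 ± 0.08. Kcna5 fell by 0.58, from 110, 216 and 337 to 114, 134 and 185 (lowest, median, highest). Kcnab3 and Kcnb2 fell by 0.42 and 0.39. Without HT vehicle female replicate 1, 8 of 33 were called, beside 33.8% of all genes, and Kcns1 (0.40), Kcng1 (0.27), Kcnc4 (0.25) and Kcnab3 (-0.27) missed the threshold. Kcng1 also missed it without HT vehicle male replicate 2 (0.42) and without HT fluoxetine female replicate 3, male replicate 2 or male replicate 3 (0.44, 0.45 and 0.44). With all libraries Kcng1 missed the threshold with edgeR and with DESeq2 (adjusted p 0.0633 and 0.052).

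In HT females alone limma called 0 of 33, and 0% of all genes; 15 passed an unadjusted p under 0.05 (beside 22.9% of all genes), edgeR and DESeq2 called 0 of the 33 (beside 0% and 2.27%), and 1 was called without HT vehicle female replicate 4 (beside 5.78%). There, Kcns1 was at 0.60 ± 0.26 and Kcna5 at -0.69 ± 0.26. The bulb list fell in all 7 markers in HT over both sexes (median -2.42). With its covariates 12 of 33 were called in HT over both sexes (7 higher, 5 lower), beside 32.1% of all genes, including Kcns1 at 0.18 ± 0.07 and Kcnq1 at 0.65 ± 0.20. The difference of the fluoxetine effect between genotypes was called for 0 of 33 genes with limma, edgeR and DESeq2, beside 0% of all genes with limma and edgeR and 0.0112% with DESeq2, and 8 genes passed an unadjusted p under 0.05, beside 14.8%. The HT effect is thus not shown to differ from that in WT.

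Lithium in WT gave 17 calls (13 higher, 4 lower), beside 42.7% of all genes (21.8% higher, 20.9% lower), with a median of 0.23 over the 31. It shares its vehicle libraries with the fluoxetine comparison, and values are given side by side. Kcns1 was at 0.55 ± 0.18 under lithium and 0.997 ± 0.18 under fluoxetine, Kcng3 at 0.62 ± 0.22 and 1.01 ± 0.22, and Kcng1 at 0.53 ± 0.18 and 0.77 ± 0.18. Kcnb2 was at -0.53 ± 0.11 and -0.78 ± 0.11, and Kcna4 at -0.48 ± 0.10 and -0.57 ± 0.10. Kcnc4 was at 0.51 ± 0.13 and 0.73 ± 0.13, and Kcnd2 at -0.24 ± 0.06 and -0.31 ± 0.06. The WT lithium libraries of Kcns1 ran from 193 over 332 to 375 normalised reads and overlapped both other treatments. Without WT vehicle male replicate 4 the count was 10, beside 35.5% of all genes, and Kcng3 (0.34), Kcns1 (0.36) and Kcng1 (0.37) missed the threshold. Kcng3 also missed it without WT vehicle female replicate 3 (0.51). Striatal markers, a list of 12, summed to 10574 to 35322 normalised reads in WT lithium libraries, 9123 to 12112 in WT vehicle, 11997 to 13547 in WT fluoxetine, 11049 to 32411 in HT lithium, 10487 to 26273 in HT vehicle and 11119 to 13631 in HT fluoxetine libraries. The highest libraries under lithium and in HT vehicle thus lay above all WT vehicle libraries. Under lithium in WT, 4 of the 12 rose (median 0.49), and Isl1, a factor of developing striatal neurons, had a median of 0 over the 60 libraries; their part in the Kv calls was not tested. For lithium in WT with bulb covariates the count was 9 (5 higher, 4 lower), beside 34.2% of all genes.

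In WT females lithium gave 0 calls of 33 with limma, edgeR and DESeq2, beside 0.00562% of all genes with limma, and 3 genes passed an unadjusted p under 0.05, beside 11.3%. Kcns1 was at 0.24 ± 0.26 and Kcnb2 at -0.38 ± 0.16 there. In HT, lithium gave 4 calls (3 higher, 1 lower), beside 23.2% of all genes (12.6% higher, 10.6% lower). Among them were Kcng4 at 0.36 ± 0.10, Kcng2 at 0.22 ± 0.06 and Kcnq1ot1 at -0.21 ± 0.05. In HT females it was 0 of 33 with the 3 tools, beside 0.0169% of all genes with limma, with 0 at an unadjusted p under 0.05, beside 9.5%. The HT count became 7 without HT lithium male replicate 1 (beside 26.4% of all genes) or without HT vehicle female replicate 4 (26.3%), and 12 with bulb covariates (9 higher, 3 lower), beside 32.8% of all genes. The difference of the lithium effect between genotypes was called for 0 of 33 with each tool, beside 0% of all genes with limma, and 0 passed an unadjusted p under 0.05, beside 4%.

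The comparison of the drugs with each other uses no vehicle library, other than for the shared estimate of spread. Fluoxetine and lithium, each over both genotypes, differed in 12 of 33 genes (5 higher and 7 lower under fluoxetine), beside 31.8% of all genes (15.2% higher, 16.6% lower). Kcnq1 had the largest difference. It stood at 34.9, 52.1 and 69.4 normalised reads over the 20 fluoxetine libraries (lowest, median, highest), at 12.1, 32.3 and 56.2 over the 20 lithium libraries, and at 14.4, 32.8 and 69.1 over the 20 vehicle libraries. The medians of lithium and vehicle were close and that of fluoxetine was higher. The ranges overlapped, and the highest vehicle library came near the highest fluoxetine library. The difference from lithium was 0.78 ± 0.14 (adjusted p = 6.3e-05). Kcnq1, which carries the slow cardiac repolarising current with Kcne1, was below the mean of 50 reads set for naming genes and was chosen after its values had been seen.

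Kcnq1 was higher under fluoxetine than under lithium in each sex. In females the difference was 0.64 ± 0.20 (adjusted p = 0.031) and in males 0.91 ± 0.20 (adjusted p = 0.0027), and with bulb covariates 0.90 ± 0.21 (adjusted p = 0.0063) and 1.03 ± 0.20 (adjusted p = 0.00032). The sex difference was not called (-0.27 ± 0.28, adjusted p = 1). Leaving out each of the 40 libraries in turn gave 0.70 to 0.82. Against vehicle in WT females fluoxetine gave 0.47 ± 0.28 and was not called, and against vehicle in HT it gave 0.47 ± 0.20 (adjusted p = 0.054).

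Kcnq1ot1, a long RNA known for silencing its imprinted neighbours, lies inside Kcnq1 on the other strand (chromosome 7, 143203458 to 143296549, within Kcnq1 at 143106362 to 143427042, GRCm38). The libraries were made with a stranded kit, but whether the counting used strand is not given in the sources used here. Kcnq1ot1 differed by -0.04 ± 0.04 between fluoxetine and lithium.

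Among the others higher under fluoxetine than under lithium were Kcns1 (0.35 ± 0.13), Kcnab2 (0.20 ± 0.05) and Kcnd1 (0.11 ± 0.04). Among those lower were Kcna5 (-0.46 ± 0.13), Kcnab3 (-0.44 ± 0.10), Kcng4 (-0.27 ± 0.07), Kcnb2 (-0.22 ± 0.08), Kcnd3 (-0.19 ± 0.06) and Kcnc1 (-0.14 ± 0.03). The bulb list differed between the drugs by a median of -2.47. With bulb covariates 7 were called, beside 15.9% of all genes, of which Kcnq1, Kcng4 (-0.40 ± 0.08) and Kcnc1 (-0.11 ± 0.03) had been called without them, while Kcna5, Kcnab3 and Kcns1 were at -0.02, -0.10 and -0.01. Without both vehicle libraries of the highest bulb mean, which enter here only through the spread, 23 were called, beside 38.8% of all genes.

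**Figure D5:**
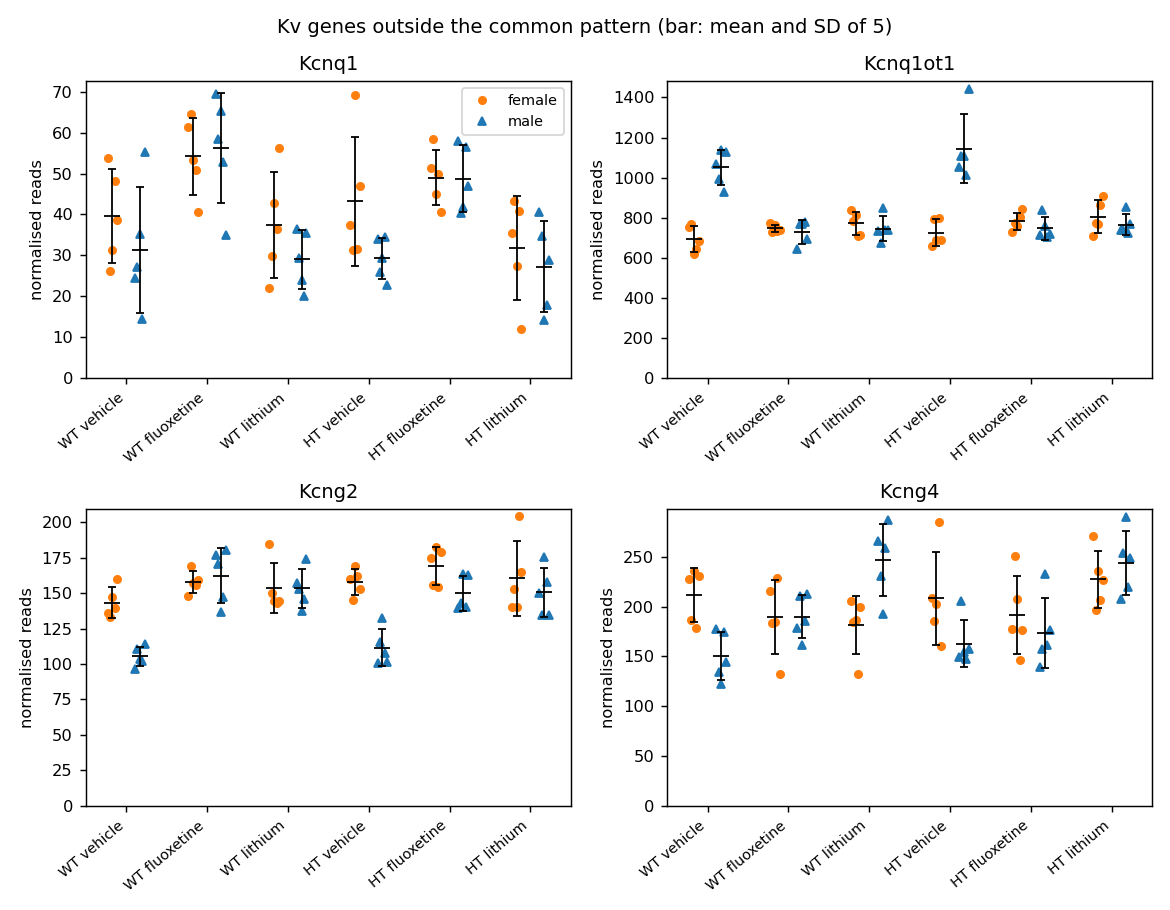
Normalised reads of Kcnq1, Kcnq1ot1, Kcng2 and Kcng4 in each of 60 libraries by genotype and treatment, with females as circles, males as triangles, and the mean and SD of each 5. Kcnq1 lies higher on average under fluoxetine, with overlap. Kcnq1ot1 is high and Kcng2 low in vehicle males, and Kcng4 is low in vehicle males with overlap.

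The 10 vehicle males set 2 of the 33 genes apart without overlap, beside 7.28% of all genes. Kcnq1ot1 stood at 929, 1088 and 1441 normalised reads in vehicle males (lowest, median, highest of 10) and at 621, 749 and 911 in the other 50 libraries. Kcng2, a silent subunit, stood at 96.8, 106 and 132 in vehicle males and at 133, 153 and 204 elsewhere. Kcnq1ot1 fell and Kcng2 rose under each drug in each genotype when the sexes were averaged. In WT females fluoxetine gave 0.11 ± 0.08 for Kcnq1ot1 and 0.14 ± 0.09 for Kcng2, neither called. In WT males it gave -0.52 ± 0.08 and 0.61 ± 0.09, both called.

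In males alone, fluoxetine gave 24 calls of 33 in WT (17 higher, 7 lower), beside 58% of all genes, and 8 in HT (5 higher, 3 lower), beside 41.4%. Lithium gave 17 in WT males (13 higher, 4 lower), beside 48.2%, and 6 in HT males (5 higher, 1 lower), beside 36.9%. In WT males under fluoxetine Kcns1 was at 1.21 ± 0.26, Kcng3 at 1.12 ± 0.31, Kcnb2 at -0.98 ± 0.16 and Kcnab3 at -0.77 ± 0.21, all called. These contrasts use the vehicle males, so a drug effect and their separation from the other libraries cannot be told apart. WT vehicle male replicate 4 also lay far from the rest of its group for Kcng3, Kcnb2 and Kcnab3.

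Differences between the sexes in a drug effect were called in few Kv genes. For fluoxetine in WT they were Kcnq1ot1, Kcng2 and Kcnc1 (3 of 33, beside 26.8% of all genes), and for fluoxetine in HT Kcnq1ot1 (1 of 33, beside 23.7%). For lithium in WT they included Kcnq1ot1, Kcng2, Kcng4 and Kcnc1 (5 of 33, beside 27.8%), and for lithium in HT Kcnq1ot1, Kcng2 and Kcnc1 (3 of 33, beside 26.4%). Kcng4, a silent subunit, had 123, 134, 145, 174 and 177 normalised reads in the WT vehicle males and 193, 231, 259, 266 and 287 in WT lithium males, with no overlap and a rise of 0.71 ± 0.15 (adjusted p = 7.5e-05 with limma). The share of all genes with such a gap was not computed for this comparison, in which 48.2% of all genes were called. Over both genotypes Kcng4 had a median of 152 in vehicle males and 206 in the other 50 libraries. The rise in WT males thus cannot be told apart from the separation of the vehicle males. In WT females, with 178, 187, 227, 231 and 236 under vehicle and 132, 184, 187, 200 and 206 under lithium, Kcng4 was at -0.23 ± 0.15 under lithium, not called, and the sexes differed by -0.94 ± 0.21 (adjusted p = 0.00048).

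Partner proteins of Kv channels were described from a list of 22, of which 19 were tested. Under fluoxetine in WT, 11 rose and 5 fell (84.2% called, beside 63.2% of all genes), with a median of 0.18. Lgi3 (0.79 ± 0.13), a secreted protein of the axonal Kcna complex, Kcnip3 (0.52 ± 0.08), a calcium sensor that binds Kcnd channels, Cntn2 (0.53 ± 0.11) and Lgi1 (0.43 ± 0.11) rose, as did Adam23, Adam11, Kcnip4, Ank3, Adam22, Lgi4 and Dpp6 (0.05 to 0.42). Kcnip1 fell by 0.81, Kcne5 by 0.76, Kcnip2 by 0.27, Dpp10 by 0.19 and Amigo1 by 0.09. In WT females 8 rose and 4 fell (63.2%, beside 39.8%), and in HT 6 rose and 2 fell under fluoxetine (42.1%, beside 40.8%). Lithium gave 5 higher and 4 lower in WT (47.4%, beside 42.7%), with Lgi3 at 0.62 ± 0.13 and Kcnip1 at -0.40 ± 0.13, and 2 higher and 1 lower in HT (Adam11, Dpp6 and Dpp10; 15.8%, beside 23.2%). None was called between genotypes under vehicle, and none in females under lithium.

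The 8 Kcnh genes, a related family of voltage-gated potassium channels outside the 33, were all tested. Under fluoxetine in WT, Kcnh1 (0.68 ± 0.13), Kcnh4 (0.50 ± 0.12), Kcnh3 (0.39 ± 0.05) and Kcnh7 (0.29 ± 0.10) rose, and Kcnh8 fell by 1.69, Kcnh6 by 0.58 and Kcnh2 by 0.30. Kcnh8 fell by 1.78 in WT females, where 39.8% of all genes were called. In HT, Kcnh3 and Kcnh4 rose under fluoxetine and Kcnh8 fell by 0.89, beside 40.8% of all genes called. Under lithium, Kcnh1, Kcnh3 and Kcnh4 rose and Kcnh8 fell by 0.72 in WT, and Kcnh3 rose (0.26 ± 0.05) in HT. Of all genes, 42.7% were called under lithium in WT and 23.2% in HT. The part of the bulb signal in the Kcnh values was not tested.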

How the data were processed

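Per gene and library, the deposited file gives a signal, which is a read number over a size factor: 100% of values were whole multiples of a step for each library (tolerance 1e-06). How the authors made it is not given in the sources used here. The submitters' processing notes list Salmon 0.11.2, R 3.6.0, DESeq2 1.19.11 and GRCm38, without saying what each did. Of 18088 genes, the 17781 that reached 10 in 5 or more libraries entered limma 3.58.1 (R 4.3.3) on the log2(value + 1) scale, with a trend, 12 group means and two-sided p-values adjusted by Benjamini-Hochberg within each contrast. The pseudocount understates changes of low genes.

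The genes, gene lists and rules were chosen with earlier results of these data known. Named genes were, in each comparison of a drug with vehicle (sexes averaged, or females) or of genotypes under vehicle, up to 4 called genes in each direction with the largest change and a mean of at least 50. The gene of each family with the highest mean value, not divided by exon length, was also named. Some genes of the 33 stay in the fits and counts but are not reported by name here. The tests were checked on simulated data in which genes varied independently and no library stood apart. That check does not cover tissue differences shared by many genes or outlying libraries. Alternatives were a pseudocount of 5, no filter, quantile normalization, a replicate block, bulb covariates, edgeR 4.0.16, DESeq2 1.42.0 and leaving out each library. Leaving out both libraries with the most bulb signal, the drugs by sex and genotype over 3 treatments were added after seeing the data. Gene positions are those of GENCODE on GRCm38.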

Additional observations from a re-analysis of the deposited data

Results flagged for a closer look

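Among 240 groups of 5 libraries over 20 genes, 26 values lay far from the other 4 of their group (gap to the nearest beyond the 95% Dixon limit), where chance gives about 1 in 20 groups. Each is given in normalised reads with the range of the other 4 in brackets. The library of WT vehicle male replicate 4 had Kcng3 at 5.78 (42.1 to 56), Kcns3 at 33.7 (104 to 118), Kcnab3 at 3189 (1197 to 1668), Kcnb2 at 3291 (1363 to 1589), Kcna4 at 1440 (613 to 712) and Kcnd2 at 4807 (2821 to 3235). The library of HT vehicle male replicate 2 had Kcnab3 at 1646 (1087 to 1161), Kcna4 at 770 (580 to 616), Kcnc4 at 1660 (2195 to 2386), Kcnd2 at 3441 (2922 to 3042), Kcng4 at 205 (148 to 158) and Kcna2 at 7589 (8796 to 9099). The library of HT vehicle female replicate 1 had Kcnab1 at 536 (1451 to 1771), Kcns3 at 35.6 (123 to 137), Kcnab3 at 2770 (901 to 1140), Kcnb2 at 1910 (945 to 1175) and Kcns2 at 580 (801 to 889). The library of WT fluoxetine male replicate 1 had Kcng3 at 53.2 (71.4 to 75.6) and Kcnc1 at 4512 (5016 to 5218). The library of HT lithium male replicate 3 had Kcng3 at 88.9 (53.5 to 61.2). The library of WT fluoxetine male replicate 3 had Kcnab1 at 1563 (1806 to 1892). The library of HT fluoxetine male replicate 1 had Kcns3 at 110 (152 to 160). The library of WT fluoxetine male replicate 4 had Kcnb2 at 976 (860 to 888). The library of WT lithium male replicate 3 had Kcnab2 at 8591 (10000 to 10517). The library of HT vehicle male replicate 5 had Kcnq1ot1 at 1441 (1012 to 1109). The library of WT lithium female replicate 1 had Kcng2 at 185 (143 to 150). WT vehicle male replicate 4 and HT vehicle female replicate 1 are the 2 libraries in which bulb markers averaged highest, and the part of that signal in these values was not tested.

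The drug effect differed between the sexes (female minus male, log2, limma interaction term, adjusted over all genes) for genes in each drug and genotype. For fluoxetine in WT, Kcnc1 differed by -0.22 ± 0.08 (adjusted p = 0.0375), Kcng2 differed by -0.47 ± 0.13 (adjusted p = 0.00377) and Kcnq1ot1 differed by 0.63 ± 0.11 (adjusted p = 1.21e-05). For fluoxetine in HT, Kcnq1ot1 differed by 0.72 ± 0.11 (adjusted p = 1.91e-06). For lithium in WT, Kcnc1 differed by -0.27 ± 0.08 (adjusted p = 0.00779), Kcng2 differed by -0.44 ± 0.13 (adjusted p = 0.0069), Kcng4 differed by -0.94 ± 0.21 (adjusted p = 0.000475) and Kcnq1ot1 differed by 0.65 ± 0.11 (adjusted p = 8.64e-06). For lithium in HT, Kcnc1 differed by -0.23 ± 0.08 (adjusted p = 0.0264), Kcng2 differed by -0.42 ± 0.13 (adjusted p = 0.0111) and Kcnq1ot1 differed by 0.72 ± 0.11 (adjusted p = 1.39e-06). The vehicle males stand apart from all other libraries, so sex, treatment and that separation cannot be told apart here.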

How the results depend on the processing

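With olfactory bulb covariates, 7 of 33 genes were called for fluoxetine in WT, 9 for lithium in WT, 12 for lithium in HT, 0 for fluoxetine in WT females and 7 for fluoxetine against lithium, in place of 30, 17, 4, 24 and 12. Of 60 named values, 22 kept direction and call with these covariates, 18 lost the call and 20 changed sign. Those that changed sign for fluoxetine in WT were Kcnab1 at -0.12, Kcns3 at -0.072, Kcna5 at 0.12, Kcng1 at -0.037, Kcna2 at -0.13, Kcns2 at -0.021 and Kcnv1 at -0.19, and for lithium in WT Kcnab1 at -0.023. In WT females they were Kcns1 at -0.28, Kcnab1 at -0.22, Kcns3 at -0.21, Kcna5 at 0.17, Kcnb2 at 0.050, Kcna4 at 0.092, Kcng1 at -0.27, Kcnc4 at -0.13, Kcnab2 at -0.0046, Kcna2 at -0.070, Kcns2 at -0.058 and Kcnv1 at -0.20. The cause was not tested. Without both libraries of the highest bulb mean, 19 were called for HT against WT under vehicle and 23 for fluoxetine against lithium, and 4 named values lost the call.

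Leaving out each library in turn gave 0 to 24 calls for HT against WT under vehicle, 30 to 30 for fluoxetine in WT, 8 to 17 for fluoxetine in HT, 10 to 23 for lithium in WT, 4 to 7 for lithium in HT, 11 to 27 for fluoxetine in WT females, 0 to 1 for fluoxetine in HT females and 8 to 15 for fluoxetine against lithium; the other counts remained 0. Of the named values in these fits, 1029 kept direction and call, 41 lost the call and none changed sign. A pseudocount of 5 and no filter changed no named call, quantile normalization ended 1, edgeR 2 and DESeq2 1. With a replicate block the counts were 30 for fluoxetine in WT and 15 in HT and no named call changed; the numbers do not pair the libraries (median correlation of same-numbered libraries 0.00523, from -0.565 to 0.616 over 330 pairs).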
